A study of Gallus gallus with 12 samples.

Results

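The 100 brightest clones of a chicken bone marrow array were examined in a broiler and a layer line. They were chosen by their level alone: of 15769 rows in the deposited table, 2141 clones held a value in all 12 samples, and the members are the 100 with the highest mean over those samples, or 4.67% of the clones. All 100 members had all 12 values because the rule kept only such rows. In 13626 rows every value was blank, and those rows could not be ranked. The 12 samples were RNA from crude tibial marrow of female birds, 6 from a commercial Cobb-Cobb broiler line and 6 from a Hy-Line White Leghorn pedigree layer line. Each of 6 two-colour slides carried 1 sample of both lines. Slides 1, 5 and 6 had broiler cDNA in the dye Alexa Fluor 647 against layer cDNA in Alexa Fluor 555, and slides 2, 3 and 4 had the reverse labelling. No treatment was given to either line. Broilers were feed-restricted from 6 weeks of age while layers ate freely, and the effects of line and of feeding cannot be told apart. The titles give an age of 60 weeks and the collection notes 15 weeks, which the labels do not settle. The labels do not say if the 6 samples of a line are 6 hens. The p-values therefore refer to the spread among these samples alone, and that spread may be technical.

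Marrow of the tibia holds the precursors of red cells, heterophils, thrombocytes and lymphocytes beside fat cells and bone. In laying hens it also holds medullary bone, a spongy deposit that forms under oestrogen and is broken down to supply calcium for eggshell. Layers have been bred for egg number and broilers for fast growth. The array measures transcripts by hybridising dye-labelled cDNA to spotted clones, and the light of a spot depends on the amount and length of the spotted DNA as well as on the transcript. The order of the members is therefore an order of brightness. The members are called the brightest clones here and not the most abundant transcripts. In crude tissue, fewer cells of a type and less RNA per cell cannot be told apart.

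No gene can be named for any member. The table gives clone identifiers only, and 0 of the 100 members and 0 of all 2141 clones matched the RefSeq gene table of the assembly GRCg7b. The labelled tissue could not be checked against its marker genes for the same reason, and no clone sequence was at hand to print. The identifiers fall into groups by prefix. Of the members, 91 carried the prefix DT40subNB, 5 the prefix C0004, 4 the prefix Pat and 0 the prefix DKFZ426. A chicken B-cell line also bears the name DT40, but no source used here explains the prefixes. The members made up 12.4% of the 733 DT40subNB clones with values, 0.736% of 679 C0004 clones and 0.607% of 659 Pat clones. DT40subNB clones were thus 733 of all 2141 clones. In the deposited table, blank rows included, 1798 rows had the prefix DT40subNB, 11447 C0004, 1983 Pat and 378 DKFZ426. The part left with values differed between the groups, and its bearing on these shares was not tested. The brightest C0004 clone stood at rank 34, the brightest Pat clone at rank 61 and the brightest of 70 DKFZ426 clones at rank 219. Among DT40subNB members, 87 had an identifier that reads as plate and well. All 18 such plates held members, from 1 to 9 each, or 2.56% to 22.0% of a plate's clones with values.

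The slides were not equally alike, which touches every result below. Across the 100 members, which share slides and dyes and are not independent, the ratios of broiler over layer on slides 2 and 3 correlated at 0.849. The other 5 pairs of slides with the same dye orientation lay between 0.237 and 0.730. All 9 pairs of opposite orientation lay below 0, between -0.753 and -0.189. Over the other 2041 clones, slides 2 and 3 correlated at 0.683 and opposite orientations gave -0.289 to 0.165. Results are therefore also given without slides 2 and 3 or with both averaged where that changes them.

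Levels are log2 values, on which 0 is about the median clone of a sample and 1 unit is a 2-fold difference. The mean level of the members ran from 5.65 down to 3.87. These values chose the members and are given as a description. On every slide the dimmest member was at least 14.1-fold brighter than the slide's dimmest clone, and the median member 37.5-fold to 55.9-fold. The members gave 45.5% ± 2.09 of the summed intensity of all 2141 clones in broiler and 46.5% ± 1.49 in layer (SD, n = 6 each). Their share was higher in broiler by 1.16, 2.52 and 0.491 percentage points on slides 1, 5 and 6. It was lower in broiler by 3.40, 3.30 and 3.66 points on slides 2, 3 and 4, so its sign followed the dye orientation on all 6 slides: it was higher in the Alexa Fluor 647 channel each time.

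**Figure D1:**
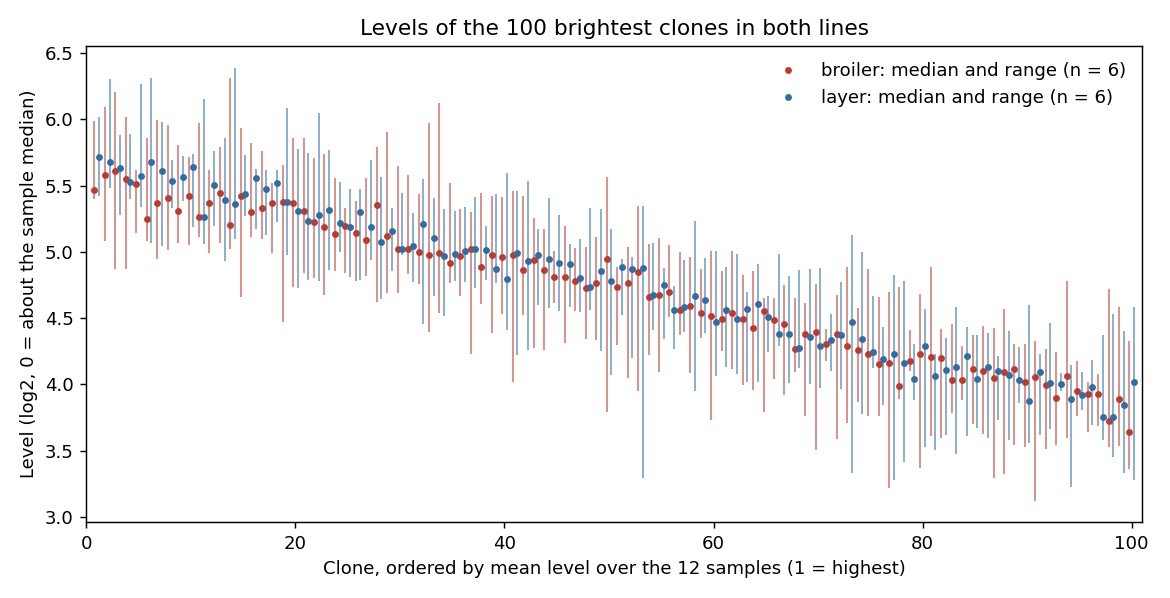
Level (log2, vertical axis) of each of the 100 members, ordered by mean level from 5.65 to 3.87 (horizontal axis). Points are medians and lines ranges over the 6 broiler samples (red) and the 6 layer samples (blue); the ranges of both lines overlap for all 100 members.

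The brightest member, DT40subNB_5G9, had levels of 5.40 to 5.99 with a median of 5.47 in broiler, against 5.42 to 6.02 with a median of 5.71 in layer. DT40subNB_15G11 ran from 5.08 to 6.09 around a median of 5.58 in broiler and from 5.48 to 6.30 around 5.67 in layer. DT40subNB_9F6 had 4.87 to 6.21 with a median of 5.61 in broiler and 5.28 to 5.88 with a median of 5.63 in layer. In all 3 clones the ranges of the lines overlapped. The means of the top 10, which also hold DT40subNB_1F8, DT40subNB_6E5, DT40subNB_18B2, DT40subNB_4H12, DT40subNB_17C1, DT40subNB_4A9 and DT40subNB_1B1, lay between 5.48 and 5.65. The order at the top was not fixed: 8 different clones were the brightest of a sample in at least 1 of the 12 samples. Not all of these 8 clones belonged to the top 10. At the other end, the members just inside were DT40subNB_1E7 at 3.89, DT40subNB_14G8 at 3.88 and DT40subNB_10G6 at 3.87. The clones just outside were DT40subNB_3C8 at 3.84, DT40subNB_14G4 at 3.83 and DT40subNB_9A3 at 3.81.

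Both lines gave nearly the same set. Both samples of a slide hybridised to the same spots, and these columns also chose the members, so this is a description. The 100 highest clones of the 6 broiler samples and of the 6 layer samples shared 98 clones. DT40subNB_7A9 and DT40subNB_14G4 were in the broiler set only, and DT40subNB_10G6 and DT40subNB_3C8 in the layer set only. All 4 lie between ranks 94 and 102, at the edge of the choice. The top 10 of both lines shared 8 clones. Within single samples, 89 to 94 members were among the 100 highest in broiler and 89 to 95 in layer. Of the members, 69 were among the 100 highest in all 12 samples. These were all 50 of the upper members, at ranks 1 to 50, and 19 of the lower members, at ranks 51 to 100. The deepest place of any member was rank 149, taken by DT40subNB_8A4 in the layer sample of slide 1. The same clone was also the lowest member in the broiler sample of that slide, at rank 146.

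The levels of the members varied from slide to slide, as did those of the other clones. The SD over slides of a member's level had a median of 0.27 and ran from 0.093 to 0.61. The median size was 0.075 for the line difference and 0.19 for the dye difference. Both are fitted over 6 slides, so they are not like measures to an SD of single slides. The dye difference was larger in size than the line difference in 78 of the 100 members, against 73 of the 100 clones next in brightness and 60.1% of all clones. The median SD over slides was 0.32 in those next 100 clones and 0.18 over all clones. Their median sizes were 0.069 and 0.044 for the line difference and 0.20 and 0.059 for the dye difference. DT40subNB_3A12 had the widest span, 2.05 log2 units over the 12 samples. Its levels were 3.95 to 5.35 in broiler with a median of 4.85, and 3.29 to 5.35 in layer with a median of 4.88. Slide 5 was its lowest slide in both lines, at 3.95 in broiler and 3.29 in layer. DT40subNB_16B11 had the narrowest span, 0.414, with 3.76 to 4.18 in broiler and 3.81 to 4.09 in layer.

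Which of the brightest clones differ between the lines was asked with the ratio of broiler over layer on each slide, fitted in limma over all 2141 clones with the dye orientation as a term. With limma, 0 of 100 members passed an adjusted p of 0.05, and 0 of all clones did (0%). The smallest adjusted p among the members was 0.202. With the slide as a random block, 0 of 100 members passed, against 1.87% of all clones. At an unadjusted p under 0.05 there were 14 members, a share close to the 11.3% of all clones. Of these, 13 were lower in broiler (background 7.24%) and 1 was higher (background 4.11%). After quantile normalization the count was 10, with 7 lower and 3 higher, against 225 of all clones, with 127 lower and 98 higher. With the median ratio of each slide set to 0, 12 members were lower and 1 was higher. Over all clones 115 were lower and 108 higher there. Of the 13 lower clones as first fitted, 11 were among the upper 50 members and 2 among the lower 50. Without slide 4 these counts were 5 and 5, where 185 of all clones were lower, against 155 with all slides. The 14 became 7 after loess, 6 with trended and robust moderation and 4 with each slide's dimmest level subtracted. They became 3 without the dye term and 0 without pairing by slide. Over all clones these settings gave 213, 247, 237, 168 and 33, against 243 as first fitted. In each of them the members' share was below that of all clones.

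The differences were small throughout. The fitted line difference of the members ran from -0.30 to 0.28 log2, with a median of -0.053, against a median of -0.0090 over all clones. It lay below 0 in 75 of 100 members (background 55.7%). The members' median was -0.016 after quantile normalization, at which 58 members lay below 0, against 1100 of all 2141 clones. That scaling gives all samples the same distribution of values, so a median of the brightest clones nearer 0 was built in. With the median ratio of each slide set to 0, the members' median was -0.041. There 71 members lay below 0, against 1038 of all clones. The 95% interval of the difference lay within 1.25-fold either way for 79 members, within 1.5-fold for 98 and within 2-fold for all 100. With slides 2 and 3 averaged these counts were 68, 95 and 100, and without both slides 43, 86 and 99. These intervals bound ratios as deposited and take the slides as independent. The members' interval had a median half-width of 0.16, against 0.096 over all clones. The SD of the members' ratio over slides had a median of 0.28, against 0.29 in the next 100 clones and 0.12 over all clones. The members are brighter by choice, and whether dimness narrows the ratios of the other clones was not tested.

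**Figure D2:**
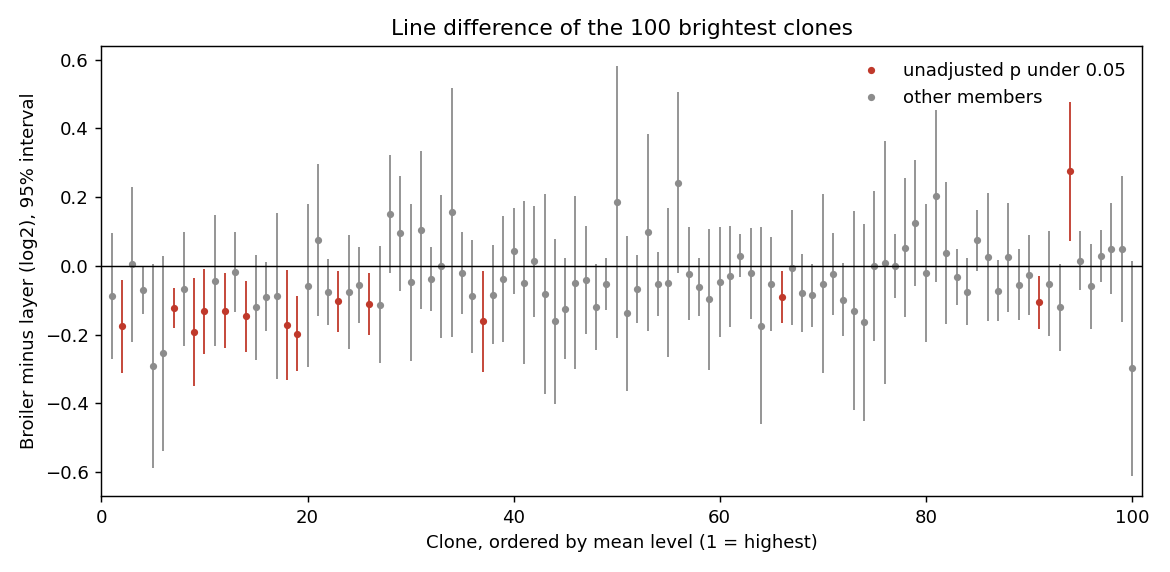
Fitted line difference, broiler minus layer (log2, vertical axis), of the 100 members ordered by mean level (horizontal axis). Lines are 95% intervals of the limma fit over 6 slides; the 14 members at an unadjusted p under 0.05 are red, 13 below 0 and 1 above, and none passed the adjustment.

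The 2 members of smallest p on each side are given as values. DT40subNB_4H12 had levels of 5.77, 5.48, 5.24, 4.95, 5.25 and 6.00 in broiler on slides 1 to 6, against 5.52, 5.98, 5.70, 5.44, 5.04 and 5.72 in layer. The broiler sample was the higher one on slides 1, 5 and 6 and the lower one on slides 2, 3 and 4. Its line difference was -0.12 ± 0.024 (SE, 6 slides; limma adjusted p = 0.202). It rests on unequal swings between the orientations, 0.24 on average with the broiler in Alexa Fluor 647 and -0.49 with the broiler in 555, and was -0.0080 after quantile normalization. DT40subNB_10E10 had mean ratios of 0.24 and -0.63 in those orientations and a line difference of -0.20 ± 0.045 (SE, 6 slides; limma adjusted p = 0.227). After quantile normalization its line difference was -0.17. For both clones, the ratio had opposite signs in the dye orientations.

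DT40subNB_7A9 had levels of 4.24, 3.81, 4.02, 4.78, 3.60 and 4.11 in broiler on slides 1 to 6, against 3.92, 3.80, 3.86, 4.15, 3.22 and 3.95 in layer. The broiler sample was higher on all 6 slides, by 0.31, 0.014, 0.15, 0.63, 0.38 and 0.16. The mean ratio was 0.28 with the broiler in Alexa Fluor 647 and 0.27 with the broiler in 555, and the line difference was 0.28 ± 0.083 (SE, 6 slides), a ratio of 1.21 (limma adjusted p = 0.298). It was 0.18 without slide 4 and 0.46 without slides 2 and 3. In the latter fit slide 4, with its ratio of 0.63, stood alone for the broiler in 555. C0004126_G22 had ratios of 0.31, -0.075, -0.0040, 0.41, 0.77 and 0.044 on slides 1 to 6, and a line difference of 0.24 ± 0.11 (SE, 6 slides; limma adjusted p = 0.454). Slides 1, 4 and 5 carried it, and the other 3 lay near 0.

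A ratio of 1 sign on all 6 slides was found in 2 members, against 6.03% of all clones. DT40subNB_7A9 was above 0 on every slide (background 1.63%) and DT40subNB_13H5 below 0 on every slide (background 4.39%). DT40subNB_13H5 had levels of 5.02, 5.19, 5.21, 5.10, 6.31 and 5.22 in broiler on slides 1 to 6, against 5.10, 5.23, 5.49, 5.26, 6.39 and 5.46 in layer. Its line difference was -0.15 ± 0.042 (SE, 6 slides; limma adjusted p = 0.293), and its mean ratio was -0.13 with the broiler in Alexa Fluor 647 and -0.16 with the broiler in 555. On slide 5 it was the brightest clone in both lines. Without regard to slides, the levels of both lines overlapped for all 100 members, so 0 members had groups apart, against 0.0467% of all clones.

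**Figure D3:**
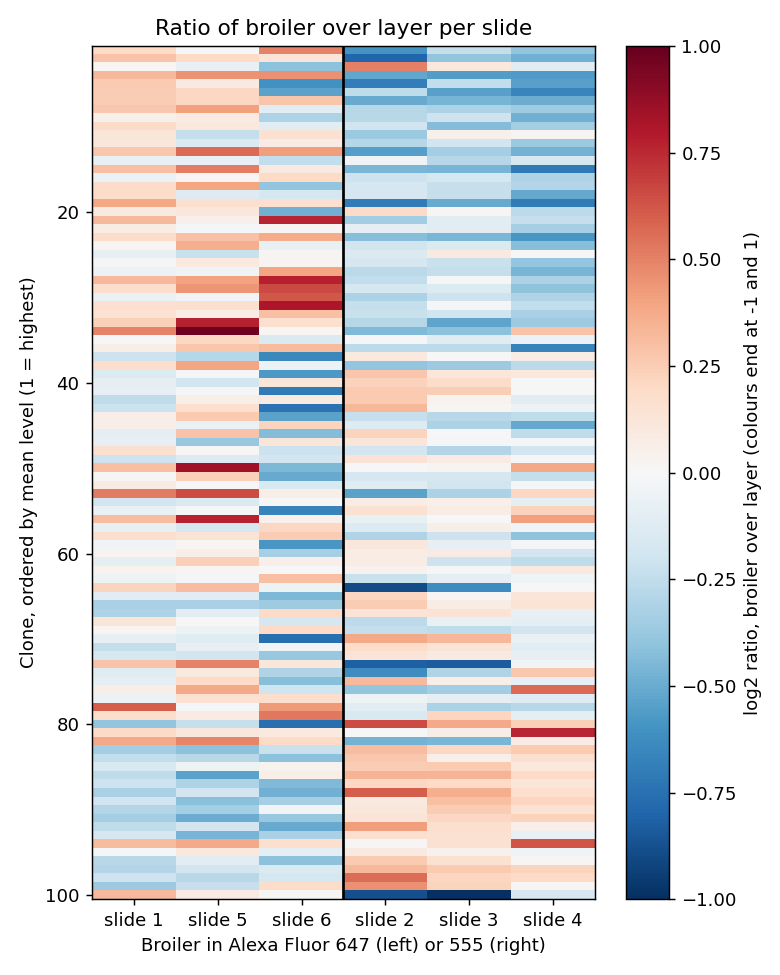
Ratio of broiler over layer (log2, colour) of the 100 members (rows, ordered by mean level) on the 6 slides (columns). The 3 slides left of the line carried the broiler in Alexa Fluor 647 and the 3 right of it in Alexa Fluor 555; the upper rows are mostly red on the left and blue on the right, and the lowest rows mostly the reverse.

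The pattern that ran through the members followed the dye orientation. That orientation sets slides 1, 5 and 6 against slides 2, 3 and 4. Other differences between these sets of slides cannot be told apart from it. The dye exchange is the technical comparison of the design, and it was tested as the dye term of the same fit. With limma, 23 members passed an adjusted p of 0.05 for a difference between Alexa Fluor 647 and 555, against 7.47% of all clones. Of these, 13 were brighter in Alexa Fluor 647 (background 3.08%) and 10 brighter in Alexa Fluor 555 (background 4.39%). All 23 were DT40subNB clones. The count changed with the slides used: leaving out slide 1 gave 1, slide 2 gave 0, slide 3 gave 2, slide 4 gave 23, slide 5 gave 2 and slide 6 gave 24. It was 0 without slides 2 and 3, 2 with both averaged, 41 with the slide as a random block, 11 after quantile normalization, and 0 with each slide's dimmest level subtracted or without pairing by slide. The counts over all clones moved alike, to 1, 0, 2, 167, 4 and 128 with slides 1 to 6 left out in turn, against 160. They were 282 with the slide as a random block, 84 after quantile normalization and 2 without slides 2 and 3 or with both averaged. With the dimmest level subtracted or without pairing by slide they were 0. The sizes moved less than the counts with 1 slide left out or the dimmest level subtracted. The median dye difference of the upper 50 members was 0.16, and 0.13 to 0.17 with 1 slide left out. It was 0.21 without slides 2 and 3. After quantile normalization, which gives all samples the same distribution of values, it was 0.014. With 1 slide left out, 47 to 65 members had an unadjusted p under 0.05 in limma, against 55 with all slides. Over all 2141 clones these counts were 415 to 596, against 538. With the dimmest level subtracted the members' dye differences ran from -0.45 to 0.48, against -0.44 to 0.48 as deposited, and the smallest adjusted p in limma was 0.0516.

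The direction of the dye difference changed along the order of brightness. Among members 1 to 25, 7 passed and all 7 were brighter in Alexa Fluor 647. Members 26 to 50 gave 5, all brighter in Alexa Fluor 647, and members 51 to 75 gave 1 in each direction. Members 76 to 100 gave 9, all brighter in Alexa Fluor 555. The 100 clones next in brightness gave 1 brighter in Alexa Fluor 647 and 26 brighter in 555. The median dye difference was 0.16 in the upper 50 and -0.070 in the lower 50 members, 0.12 and -0.084 after loess, and 0.014 and -0.055 after quantile normalization. After loess the upper 50 gave 7 and 0 clones brighter in Alexa Fluor 647 and 555. The lower 50 gave 1 and 9, and all clones gave 41 and 54. After quantile normalization these counts were 1 and 2 in the upper and 2 and 6 in the lower 50, and 41 and 43 over all clones. That scaling gives all 12 samples the same distribution of values, which pulls a shift shared by the brightest clones towards 0. The smaller tilt of the upper members after it was therefore built in. Loess subtracts the trend of the dye ratio with brightness within each slide, at a span of 0.3 of the clones. A smaller tilt of the upper members after loess was thus also built in. Whether that span can follow a change within the members was not tested. The brightness of a clone chose its place in this order, and the change along it is a description.

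**Figure D4:**
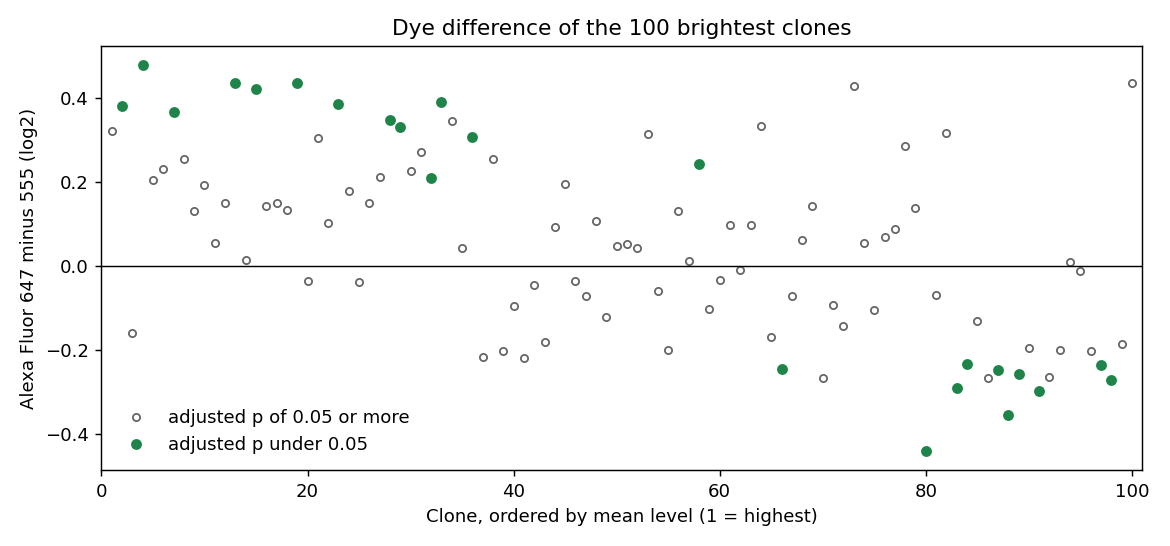
Fitted dye difference, Alexa Fluor 647 minus 555 (log2, vertical axis), of the 100 members ordered by mean level (horizontal axis). Filled points are the 23 members past an adjusted p of 0.05; the 12 among the upper 50 members all lie above 0, and of the 11 among the lower 50, 10 lie below 0.

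DT40subNB_1F8 had the smallest dye p with the brighter channel in Alexa Fluor 647. Its ratio of broiler over layer was 0.32, 0.45 and 0.46 on slides 1, 5 and 6 and -0.52, -0.56 and -0.57 on slides 2, 3 and 4, so the sample in Alexa Fluor 647 was the brighter one on all 6 slides. The dye difference was 0.48 ± 0.029 (SE, 6 slides; limma adjusted p = 0.00423). DT40subNB_4H12, described above, followed at 0.37 ± 0.024 (SE, 6 slides; limma adjusted p = 0.00423). On the other side, DT40subNB_16E9 had ratios of -0.34, -0.49 and -0.38 on slides 1, 5 and 6 and 0.13, 0.21 and 0.23 on slides 2, 3 and 4. Its dye difference was -0.30 ± 0.031 (SE, 6 slides; limma adjusted p = 0.0184), with the sample in Alexa Fluor 555 the brighter one on all 6 slides. DT40subNB_12B1 had -0.29 ± 0.033 (SE, 6 slides; limma adjusted p = 0.0192).

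Taken in each orientation by itself, the line ratio of most members changed sign with the dyes. The mean ratios of both orientations had opposite signs in 78 members, against 73 of the next 100 clones and 60.1% of all clones. This is the count given above in another form: the signs differ only where the dye difference is larger in size than the line difference. Of the 78 members, 43 had a ratio above 0 with the broiler in Alexa Fluor 647 only and 35 with the broiler in 555 only. Of the other 22, 16 were below 0 in both orientations and 6 above 0 in both. Across the 100 members the 2 orientation means had a correlation of -0.668, against -0.657 across the next 100 clones and -0.137 across all 2041 other clones. Clones share slides and dyes here, so these correlations carry no test. In the upper 50 members the median ratio was 0.056 with the broiler in Alexa Fluor 647 and -0.24 with the broiler in 555, and in the lower 50 it was -0.096 and 0.068. The dye part in the 75 members below 0 was not tested beyond the dye term of the fit.

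**Figure D5:**
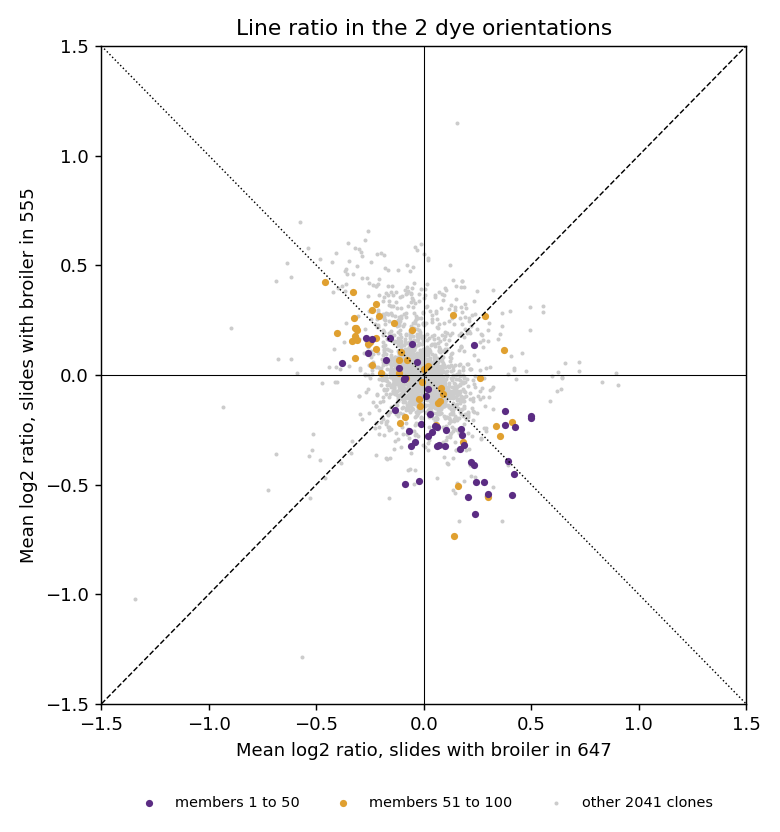
Mean log2 ratio of broiler over layer over slides 1, 5 and 6, broiler in Alexa Fluor 647 (horizontal axis), and over slides 2, 3 and 4, broiler in 555 (vertical axis), for members 1 to 50, members 51 to 100 and the other 2041 clones. A pure line difference lies on the dashed line and a pure dye difference on the dotted one; 78 of 100 members lie in the quadrants of opposite sign.

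The 9 members outside the DT40subNB group did not pass either comparison. A trio of C0004 clones had their highest ratios on slide 5 and lay above 0 on slides 1, 4 and 5. C0004119_H10 had ratios of 0.50, 0.28 and 0.98 on those slides and -0.44, -0.41 and 0.022 on slides 2, 3 and 6. C0004119_F11 had 0.30, 0.39 and 0.85 on slides 1, 4 and 5 and -0.0037, 0.028 and -0.45 on slides 2, 3 and 6. C0004126_G22, described above, was the third. These 3 were singled out after their values were seen, and their line differences of 0.16, 0.19 and 0.24 had 95% intervals that reached below 0. The other C0004 members, C0004106_B11 and C0004129_M17, had line differences of -0.052 and -0.16. The 4 Pat members, Pat_6H4, Pat_6H3, Pat_2B7 and Pat-19_f8, lay between -0.031 and 0.053, and their adjusted p for the line was at least 0.791 in limma.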

How the data were processed

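The deposited table holds natural log intensities, 1 column for each channel of 6 two-colour slides. The base was found from the values: the 60 lowest sums of both channels of a slide gave whole-number products within 0.02 in 100% of cases with base e, up to a common factor, and in at most 31.7% with base 2 or 10. Column medians of the deposited natural log values lay between 0.000103 and 0.00491, so columns are centred. The scanner, background treatment, normalization, direction of any dye correction and the filter that left 13626 rows blank are stated in no source used here. RNA was extracted with Trizol and labelled indirectly, per the labels' protocols. Values were used as deposited, divided by the natural log of 2.

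Of 2143 rows with values, 2 with control names were left out. Pairing comes from the slide in each title. Over clones, deviations from the line means correlated at 0.434 to 0.839 for samples of 1 slide and at -0.412 to 0.216 otherwise. The within-slide ratio was fitted with limma 3.58.1 in R 4.3.3 (4 residual and 2.11 prior degrees of freedom), with Benjamini-Hochberg adjustment over 2141 clones at 0.05. The number of slides limits precision. Clones named are the top 10, the 3 on each side of the limit, the 2 of smallest p on each side of the line and dye differences, the widest and narrowest span, and, after values were seen, DT40subNB_8A4, DT40subNB_13H5, the clones of 1 line's set only, the 9 members of other prefixes and the closest pair. Marker gene lists could not be tested without gene names. Members and lists were chosen with earlier results of these data known.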

Additional observations from a re-analysis of the deposited data

Results flagged for a closer look

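Of 70 sets of 6 values (levels per line and ratios of the clones named by rule, and the median ratio over the members), 1 held an end value whose gap, over the range, exceeded Dixon's 95% critical value; chance alone gives this in about 1 in 20 sets. DT40subNB_16E9 had a level of 3.62 in the layer sample of slide 5, against 4.02 to 4.23 in the other layer samples. In broiler its level on slide 5 was 3.12, also the lowest of the 6 slides, where the others lay between 3.79 and 4.32. Clones named after their values were seen were not among these sets. One of them, DT40subNB_13H5, stood at 6.31 in broiler on slide 5, against 5.02 to 5.22 on the other slides. In layer it stood at 6.39 on slide 5, against 5.10 to 5.49.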

How the results depend on the processing

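The 0 members past the threshold for the line held in all 17 alternatives run, with smallest adjusted p-values in limma from 0.135 to 0.9999. Over all clones 40 passed with the slide as a random block, 2 without slides 2 and 3, 1 with the dimmest level subtracted and 0 otherwise. The members' median line difference lay between -0.077 and -0.016 over these alternatives. The end at -0.016 came from quantile normalization, which pulls it towards 0 by construction. In several alternatives the median was -0.053, as first fitted, because the setting leaves each clone's line difference unchanged. These were the fits without the dye term, with no replicate block and with the slide as a random block. The same holds for trended and robust moderation and for leaving out the dimmest clones. The 14 members at an unadjusted p under 0.05 became 7 after loess and 6 with trended and robust moderation. They became 4 with each slide's dimmest level subtracted, 3 without the dye term and 0 in an unpaired fit with no replicate block. Over all clones these counts were 213, 247, 237, 168 and 33, against 243 as first fitted. With 1 slide left out 11 to 18 members were counted, against 175 to 356 of all clones. The 23 members with a dye difference (160 of all clones) became 41 with the slide as a random replicate block (282 of all clones). They became 11 after quantile normalization (84 of all clones) and 2 with slides 2 and 3 averaged (2 of all clones). They were 0 without slides 2 and 3 (2 of all clones). With the dimmest level subtracted and with no replicate block, 0 members and 0 of all clones passed. With 1 slide left out 0 to 24 members were counted, against 0 to 167 of all clones. Leaving out or averaging slides lowers the residual degrees of freedom. The cause of the changed counts was not tested for any setting. The membership kept 96 to 100 of the 100 clones when ranked by line, by dye, by the median, after quantile normalization or with 1 slide left out. These rankings reuse the columns that chose the members, so a large overlap was built in and is a description. The clones of smallest p were chosen in these data, and settings that leave the line difference unchanged could not alter their sign. The sign was also kept in the other alternatives, which reuse the same slides, and this is a description. Over all 17 alternatives DT40subNB_7A9 ran from 0.18 to 0.46 and C0004126_G22 from 0.14 to 0.39. DT40subNB_4H12 ran from -0.13 to -0.0080 and DT40subNB_10E10 from -0.23 to -0.17. No source used here gives the spot background, so signal over background could not be set beside the members' levels.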

Other observations

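The members that ran closest to each other were DT40subNB_11D10 and DT40subNB_4C9, a pair found after the values were seen. Over the 12 samples the difference of their levels had an SD of 0.107, against a median of 0.413 over all 4950 pairs of members. Their ratios of broiler over layer on slides 1 to 6 were -0.40, 0.65, 0.38, 0.23, -0.23 and -0.75 for DT40subNB_11D10, and -0.32, 0.61, 0.36, 0.17, -0.19 and -0.48 for DT40subNB_4C9. The sample in Alexa Fluor 555 was the brighter one on all 6 slides for both clones. The identifiers name different plates and wells, and whether both hold the same transcript was not tested.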
